A study of Mus musculus with 16 samples.

Results

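Cilium genes were followed in the uterus: 25 genes of motile cilia and 10 genes of primary cilia, chosen as known axoneme, regulator, intraflagellar transport and BBSome components and matched to the array's gene names by older or newer symbol. All 35 had at least 1 probe. A total of 32 of them, 22 motile and 10 primary, had a probe that the scanner software marked as well above background on 4 or more of the 16 arrays, and these are among the 25863 genes tested.

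Uterine RNA was hybridised to 16 one-colour arrays, 1 per sample. Mice with the form of estrogen receptor alpha called Arg260 (Arg260 mice) and wild-type (WT) mice each received 17beta-estradiol (E2) or the castor oil vehicle alone (PLB). All mice were ovariectomised at 4 weeks of age, kept 2 to 3 weeks without ovarian hormone on normal chow, and injected subcutaneously 6 h before sampling. The 4 groups of 4 arrays were thus Arg260 mice given 8 µg/kg E2, Arg260 mice given PLB (0 µg/kg), WT mice given 8 µg/kg E2, and WT mice given PLB. The labels do not state how the arginine of that name was changed, and they name no strain. Each array carries its own sample, but nothing says that the samples came from separate animals, so p-values measure the spread between these samples, which may be in part technical.

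A cilium is built on a ring of microtubule doublets that grows from a basal body. Motile cilia beat by means of dynein arms, radial spokes and a central apparatus on those doublets, and they are made under the transcription factor FOXJ1 and the RFX factors; in the female tract they are best known from the multiciliated cells of the oviduct. Primary cilia are single, immotile sensory cilia on many stromal and epithelial cells, kept up by intraflagellar transport trains and by the BBSome, a complex that carries membrane proteins, and hedgehog signals pass through them.

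Between 36505 and 41890 spots per array were well above background and 0 were saturated. The Pearson r between arrays of 1 group, across genes, was 0.980 to 0.993, and genes are not independent of each other. PLB replicate 3 of Arg260 and PLB replicate 2 of WT stood apart from the other arrays on the second principal component. Of 6 uterine markers, Esr1, Pgr, Hoxa10, Hoxa11, Hoxd10 and Foxa2 were each above background on all 16 arrays. Values below are log2 signals relative to the 75th percentile of the array, so a value of 1 unit is a factor of 2 in signal, and values of different probes are not compared with each other.

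Nearly the whole set of primary cilium genes was lower with E2 in both genotypes. In Arg260 uteri 9 of 10 were lower with E2 and 0 higher, where 64.3% of all genes tested were called, 30.7% lower and 33.6% higher. In WT uteri again 9 of 10 were lower and 0 higher, where 63.6% of all genes were called, 31.7% lower and 31.9% higher. The median log2 change of the 10 genes was -1.08 in Arg260 and -1.08 in WT, and that of all genes was 0.02 in Arg260 and -0.02 in WT. Calls are at an adjusted p under 0.05 in limma, with the Benjamini-Hochberg adjustment over all genes. All 10 were above background on all 16 arrays. A slide below is the set of arrays that share a scan date in the file headers. On slide 1 alone, with 2 arrays per group, 9 of 10 were lower in Arg260 and 9 in WT, and on slide 2 alone 7 in Arg260 and 9 in WT. Of all 25863 genes, 14487 were called in either direction in Arg260 and 13895 in WT on slide 1 alone. On slide 2 alone 11235 were called in Arg260 and 11391 in WT. Without the pair of arrays that stood apart all 10 were lower in both genotypes, where 16262 of all genes were called in Arg260 and 16096 in WT. In whole tissue, fewer cells of a type and less RNA per cell cannot be told apart.

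Ttc8 and Bbs2, both BBSome subunits, fell most of the 10. Ttc8, which encodes the subunit also called BBS8, read -0.51, -0.02, -0.31 and -0.19 in Arg260 E2 uteri, against 1.77, 1.74, 1.49 and 1.74 in Arg260 PLB uteri. In WT uteri Ttc8 read -0.02, 0.07, -0.01 and 0.02 with E2, against 1.65, 1.86, 1.53 and 1.57 with PLB. No E2 array came near a PLB array in either genotype. Ttc8 fell by 1.95 log2 units in Arg260 (SE 0.10, 3.85-fold, adjusted p = 9.56e-10) and by 1.64 in WT (SE 0.10, 3.11-fold, adjusted p = 5.15e-09). Its probe lies on chromosome 12 at 100221132 to 100221191, plus strand, of the array's mm9 build.

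Bbs2, a core subunit, read -1.55, -0.91, -0.80 and -1.003 in Arg260 E2 uteri, against 0.37, 0.53, 0.21 and 0.06 in Arg260 PLB uteri. In WT uteri Bbs2 read -0.97, -0.86, -1.33 and -0.90 with E2, against 0.35, 0.51, 0.35 and 0.28 with PLB. The groups did not overlap, and the lowest array was E2 replicate 1 of Arg260. The change was -1.36 in Arg260 (SE 0.16, adjusted p = 2.26e-06) and -1.39 in WT (SE 0.16, adjusted p = 1.86e-06). Bbs4, a subunit that links the complex to pericentriolar material, fell by 1.13 in Arg260 and by 1.11 in WT (SE 0.10 each). Bbs1, which binds the small GTPase ARL6, fell least of the 4, by 0.54 in Arg260 and 0.70 in WT. A second Bbs1 probe on the same messenger did not pass the test, with a change of 0.08 in Arg260 and -0.02 in WT (adjusted p = 0.51 and 0.87), so the 2 probes of this gene disagree.

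Transport train genes were lower too, with 1 exception. Ift81, an IFT-B protein that binds tubulin cargo, read -0.35, -0.18, 0.15 and -0.02 in Arg260 E2 uteri, against 1.11, 1.30, 1.28 and 1.23 in Arg260 PLB uteri. In WT uteri Ift81 read -0.05, -0.28, -0.22 and 0.15 with E2, against 1.17, 1.11, 1.22 and 1.27 with PLB. All 8 E2 arrays lay below all 8 PLB arrays, and the change was -1.33 in Arg260 (SE 0.11, 2.52-fold, adjusted p = 7.65e-08) and -1.29 in WT (SE 0.11, 2.45-fold, adjusted p = 1.08e-07).

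Ift172, the largest IFT-B subunit, fell by 1.02 in Arg260 and 1.11 in WT (SE 0.08 each). Ift88, an IFT-B core protein whose loss in mice prevents normal cilium assembly, fell by 0.64 in Arg260 and 0.56 in WT (SE 0.08 each). Ift140 belongs to the IFT-A complex of the return journey and fell by 0.89 in Arg260 and 1.06 in WT (SE 0.16 each). Kif3a encodes a motor subunit of the kinesin that pulls the trains outward, and it fell by 1.20 in Arg260 and 1.06 in WT (SE 0.10 each). A second Kif3a probe gave -1.28 in Arg260 and -1.17 in WT.

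Ift57, an IFT-B protein, was the gene that missed the threshold. It read 2.22, 2.17, 2.08 and 2.13 in Arg260 E2 uteri, against 2.41, 2.42, 1.92 and 2.28 in Arg260 PLB uteri. In WT uteri Ift57 read 2.15, 2.20, 2.14 and 2.05 with E2, against 2.28, 2.30, 2.42 and 2.46 with PLB. PLB replicate 3 of Arg260 lay below all E2 arrays of its genotype, while in WT the groups did not overlap. The change was -0.11 in Arg260 (SE 0.10, adjusted p = 0.36) and -0.23 in WT (SE 0.10, adjusted p = 0.0504). Without PLB replicate 3 of Arg260 the change was -0.22 in Arg260 (adjusted p = 0.016) and -0.23 in WT (adjusted p = 0.00665), with slide as a block the WT change passed (adjusted p = 0.048), and under quantile normalisation the change was -0.40 in Arg260 and -0.48 in WT, past the threshold in both.

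**Figure D1:**
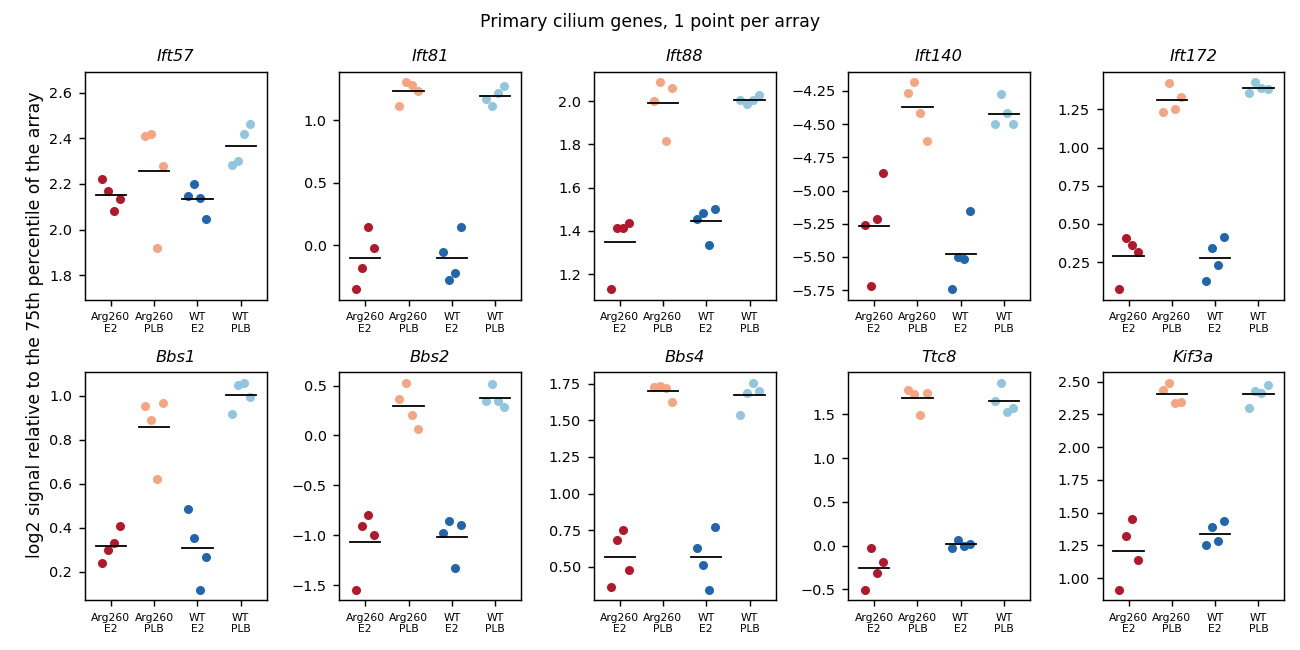
Log2 signal of the 10 primary cilium genes relative to the 75th percentile of the array, 1 point per array, with a line at the mean of each group of 4. In 9 of 10 genes the 4 E2 arrays lay below the 4 PLB arrays in Arg260, and in all 10 in WT; Ift57 shows the smallest separation.

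Across all genes, 27.5% had all 4 E2 arrays below all 4 PLB arrays in Arg260, and 29.0% in WT. The primary cilium genes had 9 of 10 in Arg260 and 10 of 10 in WT. Within a group, E2 replicate 1 of Arg260 held the lowest value of its group for 8 of the 10 genes, and PLB replicate 2 of Arg260 held the highest for 8 of 10.

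Motile cilium genes moved in both directions. Several of their probes were dim, and a probe that is bright in only 1 treatment can pass the filter on that account alone, so the 14 genes above background on all 16 arrays are given first. Of those 14, 8 were lower with E2 and 1 higher in Arg260, where 31.6% of the 21194 genes equally bright were lower and 37.1% higher. In WT 9 of the 14 were lower and 1 higher, where 32.5% of such genes were lower and 35.3% higher. Of the 14, 7 were lower and 1 was higher in both genotypes, where 28.8% and 33.4% of such genes were. The median log2 change of the 14 was -0.54 in Arg260 and -0.62 in WT. Some of the 22 that passed the filter did so by their PLB arrays alone, which favours a lower signal with E2. Counts and medians over the 22 thus add no support to those of the 14. Of all 22, 13 were lower, 2 were higher and 7 did not pass the test in Arg260, beside 30.7% lower and 33.6% higher of all genes tested. In WT 14 of the 22 were lower, 3 were higher and 5 did not pass, beside 31.7% lower and 31.9% higher of all genes. A total of 12 were lower in both genotypes, as were 27.7% of all genes, and 2 were higher in both, as were 29.8%. The median of the 22 was -0.68 in Arg260 and -0.71 in WT. Under normexp background correction with quantile normalisation it was -0.25 in Arg260 and -0.27 in WT, and in the deposited table of log2 values -0.36 and -0.40. On slide 1 alone 11 of the 22 were lower and 2 higher in Arg260, and 10 were lower and 2 higher in WT. On slide 2 alone 9 were lower and 1 higher in each genotype. Fewer of all 25863 genes were called there too, 14487 in Arg260 and 13895 in WT on slide 1, and 11235 and 11391 on slide 2.

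Foxj1, the transcription factor that switches on the motile cilium programme, was near background. It read -8.53, -7.28, -7.59 and -6.84 in Arg260 E2 uteri, none of them well above background, against -4.83, -5.52, -4.06 and -6.25 in Arg260 PLB uteri, 2 of them above it. In WT uteri Foxj1 read -7.07, -6.65, -5.30 and -7.67 with E2, 1 of them above background, against -4.94, -5.55, -4.66 and -5.49 with PLB, 3 of them above it. The treatments did not overlap in Arg260 and overlapped in WT through E2 replicate 3. The measured change was -2.40 in Arg260 (SE 0.53, adjusted p = 0.0011) and -1.51 in WT (SE 0.53, adjusted p = 0.022). The PLB arrays alone met the filter for this probe. It was thus admitted through the treatment where it is high, and these limma p-values are no support for a fall. A bound on the fall used, for each E2 array, the higher of the probe's own signal and the lowest signal marked above background there. That bound was 2.00-fold in Arg260. It took all PLB signals as read, also those not above background, and the adjusted p does not test it. In WT the call did not pass without PLB replicate 3 (-1.35, adjusted p = 0.060), without E2 replicate 1 (-1.38, adjusted p = 0.056) or without E2 replicate 4 (-1.18, adjusted p = 0.074). Nor did it pass in WT under normexp background correction with quantile normalisation (-0.30, adjusted p = 0.070) or in the deposited table (-0.48, adjusted p = 0.051). On slide 2 alone Foxj1 passed in neither Arg260 (-2.06, adjusted p = 0.145) nor WT (-1.41, adjusted p = 0.297).

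Rfx2 encodes an RFX factor that acts with FOXJ1. It read -4.10, -3.26, -3.03 and -3.52 in Arg260 E2 uteri, against -2.04, -2.33, -2.10 and -1.996 in Arg260 PLB uteri. In WT uteri Rfx2 read -3.54, -3.23, -3.82 and -3.29 with E2, against -2.16, -2.41, -2.32 and -2.32 with PLB. All E2 arrays lay below all PLB arrays, with a change of -1.36 in Arg260 (SE 0.19, adjusted p = 1.73e-05) and -1.17 in WT (SE 0.19, adjusted p = 7.86e-05).

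Rfx3, a related factor needed for cilia in mice, gave -0.61 in Arg260 (SE 0.30, adjusted p = 0.090) and -1.33 in WT (SE 0.30, adjusted p = 0.0013) on its brightest probe. E2 replicate 1 of Arg260 stood high at -3.08, among the other E2 arrays of that genotype at -4.34, -4.59 and -4.26. Without it the change in Arg260 was -0.94 (adjusted p = 0.0033). Both other Rfx3 probes passed, with changes of -1.66 and -1.47 in Arg260 and of -1.61 and -1.08 in WT.

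Because RFX factors bind the X-box, promoters were searched for it. RefSeq promoter windows of the GRCm38.p6 build were present for 22 of the 25 motile and 9 of the 10 primary genes, and the 250 bases before the start site were searched on both strands for GTNNCCNNGNAAC, GTNNCCNNNGNAAC and GTNNCCNNNNGNAAC, which differ in the length of the spacer. A match was found for 9 of 22 motile genes (40.9%), Rfx2, Dnahc9, Dnaic1, Dnaic2, Spag16, Spag17, Hydin, Tekt2 and Tekt4, and for 1 of 9 primary genes, Ift57, against 1139 of 27025 genes (4.21%). The palindromic estrogen response element GGTCANNNTGACC matched 0 of these members and 18 of the 27025 genes (0.0666%), and the forkhead site GTAAACA matched 0 members and 956 genes (3.54%). Matches describe letters in these windows and not binding. The windows below are shown because they belong to genes that moved in opposite directions and to the primary gene that missed the threshold; each is written on the gene's strand, with the X-box, or its reverse complement, in capitals.
Tekt4, chr17:25471422-25471451, plus strand: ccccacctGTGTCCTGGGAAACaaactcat
Dnaic2, chr11:114727378-114727406, plus strand: cggccaggGTTGCTAGGCAACtggtaaac
Spag16, chr1:69826859-69826888, plus strand: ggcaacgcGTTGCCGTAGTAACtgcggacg
Rfx2, chr17:56831102-56831131, minus strand: ggtaaccGTTGCCGGGCGCAACgccccgcc
Tekt2, chr4:126325697-126325725, minus strand: agggggcgGTTGCTCGGCAACcagagccg
Ift57, chr16:49699226-49699254, plus strand: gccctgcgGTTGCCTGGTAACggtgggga
Ift57, chr16:49699199-49699228, plus strand: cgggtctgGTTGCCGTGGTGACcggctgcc

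Of the 9 motile genes with a match, 7 were tested. In Arg260 2 of the 7 were lower with E2, 2 were higher and 3 did not pass, beside 30.7% lower and 33.6% higher of all genes tested. In WT 3 were lower, 3 were higher and 1 did not pass, beside 31.7% lower and 31.9% higher of all genes. The 3 motile genes called higher in WT, Tekt4, Dnaic2 and Spag16, all had a match, a grouping that was noticed after the values were seen and carries no test.

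Dynein heavy chains, the motors of the arms, gave some of the largest falls. Dnahc2, an inner arm chain whose probe lies on chromosome 11 at 69234345 to 69234404 (mm9, minus strand), read -2.21, -1.70, -1.62 and -2.06 in Arg260 E2 uteri, against 0.51, 0.71, -0.16 and 0.61 in Arg260 PLB uteri. In WT uteri Dnahc2 read -1.67, -1.41, -2.02 and -1.43 with E2, against 0.49, 0.66, 0.62 and 0.95 with PLB. The treatments stood more than a log2 unit apart, and PLB replicate 3 of Arg260 was the lowest PLB array. Dnahc2 fell by 2.31 in Arg260 (SE 0.20, 4.97-fold, adjusted p = 1.22e-07) and by 2.31 in WT (SE 0.20, 4.95-fold, adjusted p = 1.28e-07).

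Dnahc5, an outer arm chain whose loss in mice causes primary ciliary dyskinesia, read -7.62, -6.84, -7.26 and -5.51 in Arg260 E2 uteri, against -4.27, -4.25, -4.50 and -4.75 in Arg260 PLB uteri. In WT uteri Dnahc5 read -6.50, -7.69, -7.63 and -7.89 with E2, against -4.06, -3.78, -4.28 and -4.99 with PLB. It was above background on 1 of 4 E2 arrays and on all 4 PLB arrays in each genotype, and the groups did not overlap. The change was -2.37 in Arg260 (SE 0.41, adjusted p = 0.00014) and -3.15 in WT (SE 0.41, adjusted p = 9.19e-06), and its size rests on signals near background. For Dnahc5 too the PLB arrays alone met the filter, so its adjusted p-values are no support for a fall.

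Dnahc11, another outer arm chain, was above background on 0 of 4 E2 arrays and 4 of 4 PLB arrays in Arg260. By the bound used for Foxj1 its signal there was at least 1.85-fold lower with E2. The measured change was -1.38 (SE 0.28, adjusted p = 0.00053). In WT Dnahc11 was above background on 2 of 4 E2 arrays and 4 of 4 PLB arrays, with a change of -1.12 (SE 0.28, adjusted p = 0.0029). Dnahc1, an inner arm chain, changed by -1.32 in Arg260 and by -0.77 in WT (SE 0.24 each, adjusted p = 0.00021 and 0.011), with 1 of 4 E2 and 3 of 4 PLB arrays above background in Arg260 and 2 of 4 and 3 of 4 in WT. The PLB arrays alone met the filter for Dnahc11 and Dnahc1 as well, and their adjusted p-values carry the same limit. Dnahc9, an outer arm chain, had probes above background on at most 2 of 16 arrays and was not tested.

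The smaller dynein chains did not move together. Dnali1, the inner arm light intermediate chain, changed by -1.16 in Arg260 (SE 0.36, adjusted p = 0.011) and by -1.63 in WT (SE 0.36, adjusted p = 0.0011), from a dim probe above background on 2 of 4 E2 and 3 of 4 PLB arrays in Arg260 and 1 of 4 and 4 of 4 in WT. Its PLB arrays alone met the filter, so the adjusted p-values of Dnali1 are no support for a fall. Dnaic1, an outer arm intermediate chain now called Dnai1, changed by -0.10 in Arg260 (SE 0.17, adjusted p = 0.63) and by -0.44 in WT (SE 0.17, adjusted p = 0.037). The WT call of Dnaic1 did not pass without PLB replicate 2 or 4, or without E2 replicate 1, 2 or 3, with changes of -0.31 to -0.46. Nor did it pass under quantile normalisation (-0.27, adjusted p = 0.19), with normexp background correction added (-0.21, adjusted p = 0.18) or in the deposited table (-0.27, adjusted p = 0.064). It was also lost without the filter on dim probes (adjusted p = 0.055) and on slide 2 alone (-0.48, adjusted p = 0.28).

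Dnaic2, the partner intermediate chain of Dnaic1, went the other way. It read -4.33, -4.27, -4.07 and -4.01 in Arg260 E2 uteri, against -5.30, -5.69, -4.55 and -4.23 in Arg260 PLB uteri. In WT uteri Dnaic2 read -4.10, -4.08, -3.87 and -4.05 with E2, against -5.52, -4.95, -5.46 and -4.19 with PLB. The PLB arrays were widely spread. PLB replicate 4 lay among the E2 arrays in Arg260, so the treatments overlapped there, and just below them in WT. The change was 0.77 in Arg260 (SE 0.31, adjusted p = 0.040) and 1.01 in WT (SE 0.31, adjusted p = 0.010). The Arg260 call did not pass without PLB replicate 1 or 2, or without any 1 of the 4 E2 arrays, with changes of 0.52 to 0.83, nor on slide 2 alone (0.35).

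Ccdc39 and Ccdc40 form the ruler that spaces inner arms and spokes along a doublet. Ccdc39 read -5.30, -4.48, -4.63 and -3.60 in Arg260 E2 uteri, against -2.83, -2.75, -3.21 and -2.83 in Arg260 PLB uteri. In WT uteri Ccdc39 read -4.34, -4.81, -4.71 and -4.79 with E2, against -3.06, -2.88, -3.30 and -3.03 with PLB. The treatments did not overlap, and E2 replicate 4 of Arg260 was the E2 array closest to the PLB arrays. Ccdc39 fell by 1.60 in each genotype (SE 0.26, 3.02-fold, adjusted p = 7.75e-05 in Arg260 and 7.86e-05 in WT). Ccdc40 fell by 0.74 in Arg260 and 0.72 in WT (SE 0.23 each, adjusted p = 0.010 and 0.012).

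Radial spoke head genes changed little. Rsph9 fell by 0.44 in Arg260 (SE 0.12, adjusted p = 0.0041) and by 0.56 in WT (SE 0.12, adjusted p = 0.00075), with no overlap between treatments. Rsph1 changed by -0.47 in Arg260 (SE 0.16, adjusted p = 0.018) and by -0.34 in WT (SE 0.16, adjusted p = 0.072). Without PLB replicate 1 or E2 replicate 3 of Arg260 that Arg260 change was -0.40 (adjusted p = 0.057) or -0.33 (adjusted p = 0.063), and a second Rsph1 probe gave 0.39 in Arg260 and -0.92 in WT, neither past the threshold. The Arg260 call was also lost under quantile normalisation (-0.32, adjusted p = 0.10), with normexp background correction added (-0.24, adjusted p = 0.080), in the deposited table (-0.27, adjusted p = 0.12) and on slide 1 alone (-0.25, adjusted p = 0.25). In WT Rsph1 passed without E2 replicate 3 (-0.44, adjusted p = 0.031) or, through the shared spread, without E2 replicate 3 of Arg260 (-0.34, adjusted p = 0.039). Rsph4a changed by -0.30 in Arg260 and -0.47 in WT (adjusted p = 0.27 and 0.090), and in WT it passed without PLB replicate 1 (-0.65, adjusted p = 0.022) or PLB replicate 4 (-0.62, adjusted p = 0.036).

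Central apparatus genes differed among themselves. Stk36, a kinase needed for the central pair in mice, read -2.78, -2.85, -2.83 and -2.72 in Arg260 E2 uteri, against -1.81, -1.82, -1.91 and -1.94 in Arg260 PLB uteri. In WT uteri Stk36 read -2.78, -2.89, -2.75 and -2.71 with E2, against -1.79, -1.86, -1.96 and -1.74 with PLB. Replicates lay close together in every group, and the treatments were far apart. Stk36 fell by 0.93 in Arg260 (SE 0.07, adjusted p = 1.96e-08) and by 0.94 in WT (SE 0.07, adjusted p = 1.63e-08).

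Spag16, a central apparatus scaffold, changed by 0.29 in Arg260 (SE 0.22, adjusted p = 0.28) and by 0.56 in WT (SE 0.22, adjusted p = 0.041). This came from 1 of 4 Spag16 probes, the only one bright enough to test, and the WT call did not pass without PLB replicate 2 or 3, or without E2 replicate 1, 2 or 4, with changes of 0.40 to 0.54, nor on slide 1 alone (0.82, adjusted p = 0.052) or slide 2 alone (0.30, adjusted p = 0.50). Hydin, a giant central pair projection protein, changed by -0.46 in Arg260 and 0.16 in WT (adjusted p = 0.19 and 0.65). Spef2, which helps to assemble the central apparatus, changed by -0.46 in Arg260 and -0.26 in WT on its brightest probe (adjusted p = 0.057 and 0.27), whereas a second probe gave -1.04 and -0.98 and passed in both genotypes. With slide as a block its brightest probe passed in Arg260 (-0.46, adjusted p = 0.013), and so it did without PLB replicate 3 (-0.56) or 4 (-0.59), without E2 replicate 2 (-0.55), and without PLB replicate 4 of WT (-0.46). Spag6 was above background on 3 of 16 arrays and Spag17 on at most 1, and neither was tested. The probe that the array calls Spag6 is that of the gene now named Spag6l. Its near-identical paralog, BC061194 on the array and Spag6 in RefSeq, had a probe above background on 0 of 8 E2 arrays, 2 of 4 PLB arrays in Arg260 and 4 of 4 PLB arrays in WT. By the bound used for Foxj1 that signal was 1.15-fold lower with E2 in Arg260, where not all PLB arrays were above background. In WT it was at least 1.56-fold lower. The probe passed the filter through PLB arrays alone, so no test of it is given, and it is not counted among the 22.

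Tektins line the inside of the doublet microtubules, and 1 of them rose. Tekt4, which is best known from sperm tails and whose probe lies on chromosome 17 at 25613464 to 25613523 (mm9, plus strand), read -1.27, -1.07, -0.72 and -0.88 in Arg260 E2 uteri, against -2.36, -2.39, -2.72 and -2.40 in Arg260 PLB uteri. In WT uteri Tekt4 read -1.09, -0.87, -1.21 and -0.86 with E2, against -2.38, -2.25, -2.32 and -2.56 with PLB. All E2 arrays lay above all PLB arrays. Tekt4 rose by 1.48 in Arg260 (SE 0.13, 2.79-fold, adjusted p = 1.14e-07) and by 1.37 in WT (SE 0.13, 2.59-fold, adjusted p = 2.61e-07). Tekt2 fell by 0.76 in Arg260 and 0.69 in WT (SE 0.20 each, adjusted p = 0.0039 and 0.0071). Tekt1 changed by 0.29 in Arg260 and 0.07 in WT (adjusted p = 0.43 and 0.85).

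**Figure D2:**
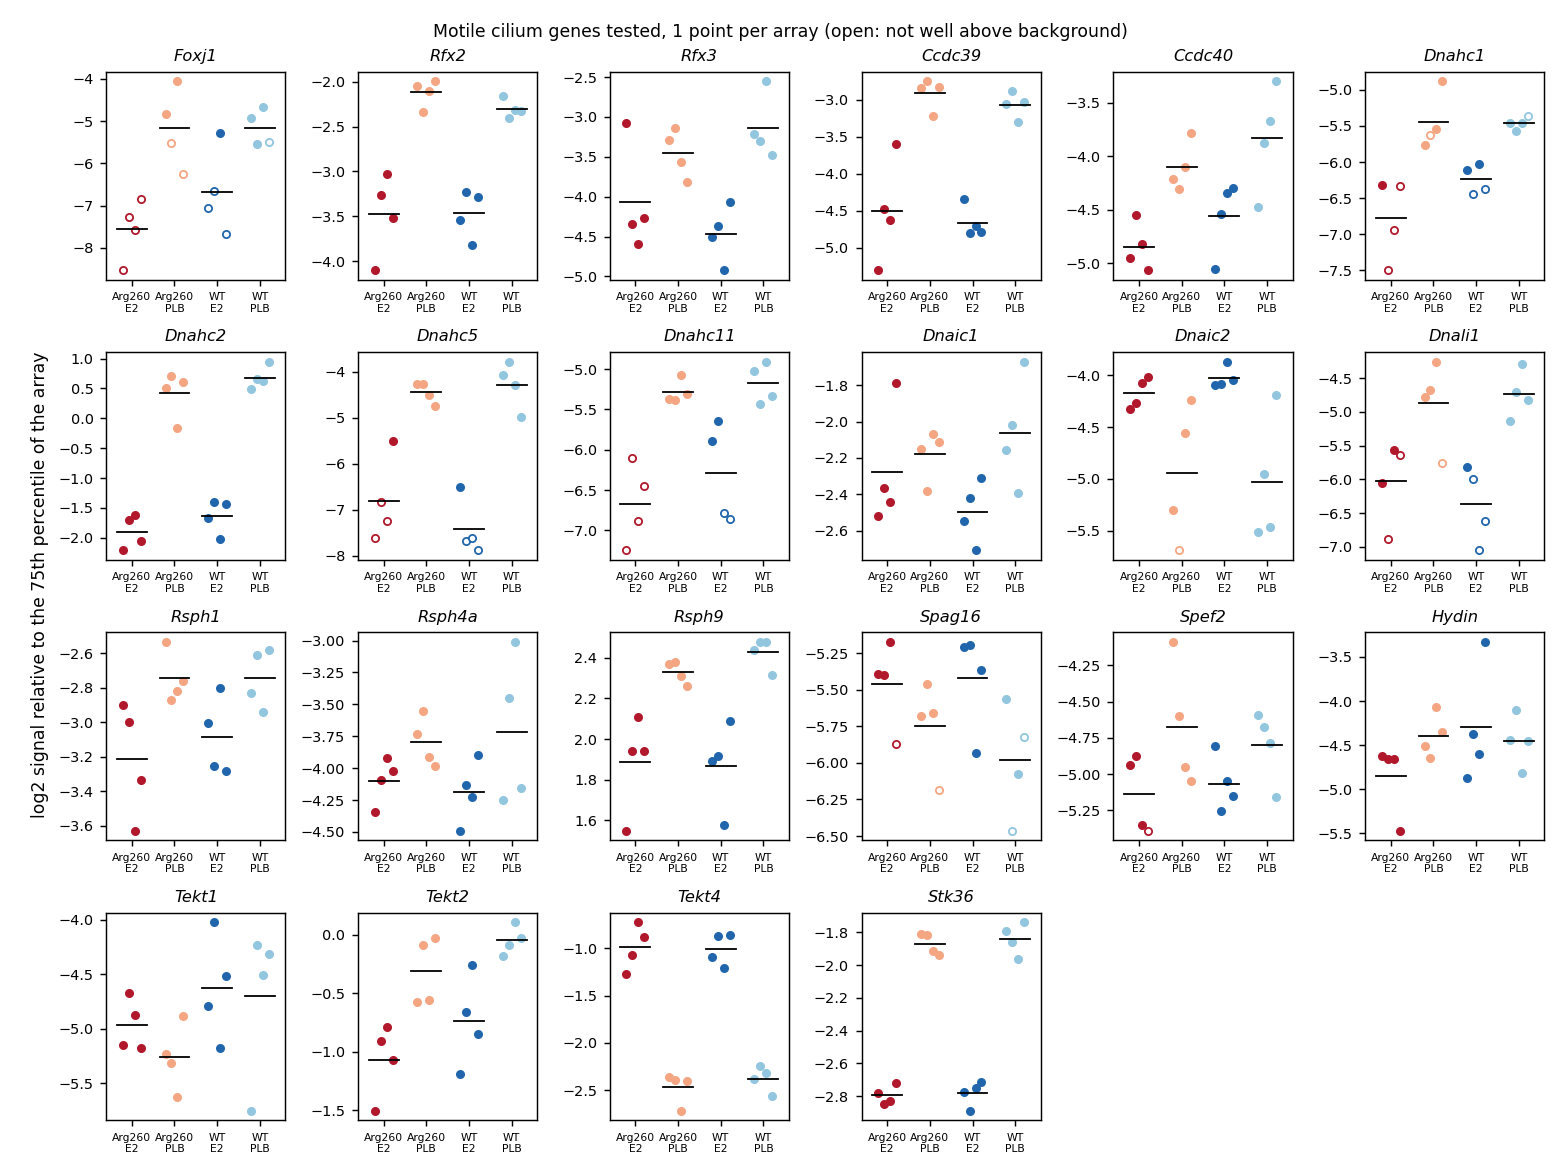
Log2 signal of the 22 tested motile cilium genes relative to the 75th percentile of the array, 1 point per array, with a line at the mean of each group of 4; open points were not well above background. Tekt4 and Dnaic2 are higher with E2 in both genotypes, and Dnahc2, Dnahc5, Ccdc39, Rfx2 and Stk36 are lower without overlap.

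Of the 14 motile genes above background on all 16 arrays, 8 had all 4 E2 arrays below all 4 PLB arrays in Arg260 and 7 in WT, where 28.5% and 30.1% of genes equally bright did. A total of 1 of the 14, Tekt4, lay wholly above in each genotype, where 34.7% of such genes did in Arg260 and 33.6% in WT. Over all 22 that passed the filter, some of them through PLB arrays alone, 12 lay wholly below in Arg260 and 11 in WT, beside the 27.5% and 29.0% of all genes given above. Of the 22, 1 in Arg260 and 2 in WT lay wholly above, beside 31.2% and 30.1% of all genes. E2 replicate 1 of Arg260 was the lowest array of its group for 12 of the 22 genes.

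Genotype made no difference that passed the test. The difference between the E2 responses, Arg260 minus WT, was called for 0 of 32 cilium genes by limma, and 0% of the 25863 genes were called (961 had an unadjusted p under 0.05, and 0 of the 32 did). It ranged from -0.88 for Foxj1 to 0.78 for Dnahc5 among motile genes, with 95% intervals of -2.49 to 0.72 and -0.47 to 2.03. Among primary genes it ranged from -0.31 for Ttc8 (95% interval -0.62 to 0.01) to 0.17 for Ift140 (95% interval -0.33 to 0.66). The difference was under 0.5 log2 units in size for 10 of 10 primary and 17 of 22 motile genes. These intervals leave room for differences of that size, above all for the dim motile genes. Across genes, the responses of both genotypes correlated at a Pearson r of 0.97 over the 10 primary genes and 0.92 over the 22 motile genes; the responses share no arrays, but the genes share libraries and the values are a description.

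Arg260 and WT were also compared within a treatment. With PLB alone, 0 of 32 cilium genes were called (0% of all genes, 638 with an unadjusted p under 0.05, 0 of them cilium genes), with changes from -0.56 to 0.23 among motile and -0.15 to 0.05 among primary genes. With E2, again 0 of 32 were called (0% of all genes, 1900 with an unadjusted p under 0.05, 2 of them cilium genes), with changes from -0.89 to 0.62 among motile and -0.27 to 0.21 among primary genes. Ttc8 was the single cilium gene whose Arg260 arrays all lay below the WT arrays, with E2, by 0.27 log2 units (adjusted p = 0.63), and 1.40% of all genes did so; no cilium gene lay wholly above with E2, where 2.55% of all genes did.

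**Figure D3:**
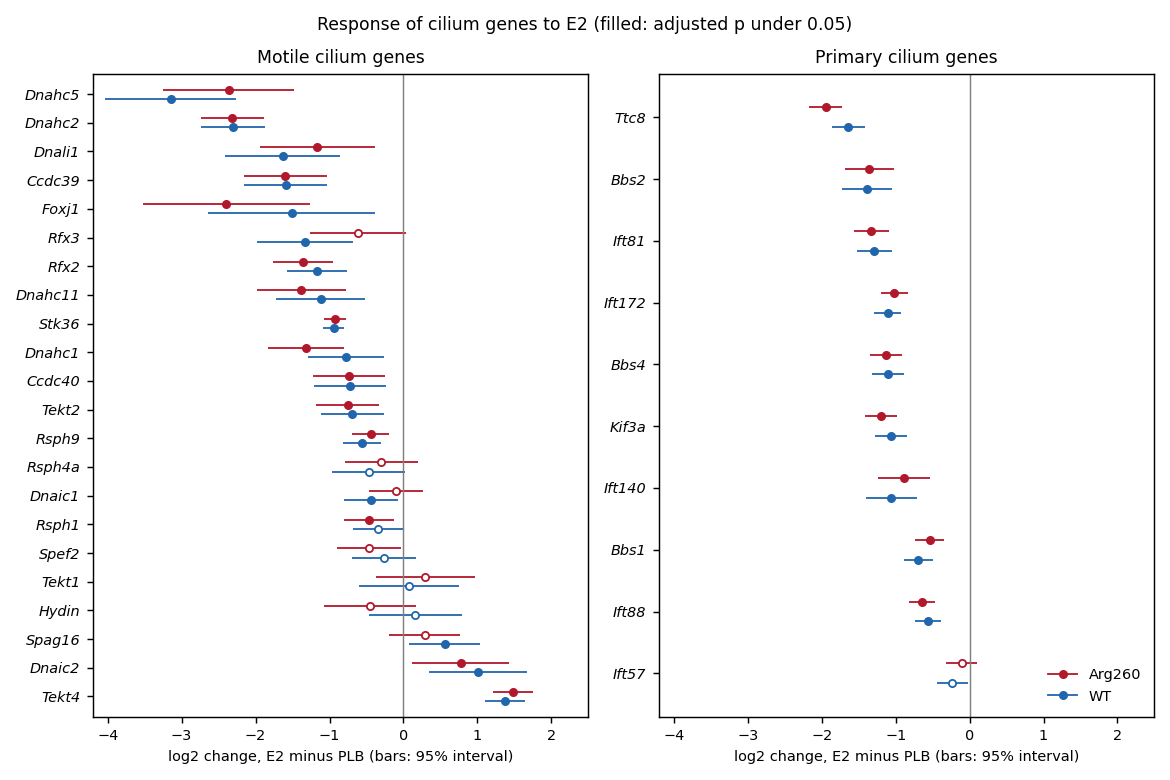
Log2 change of each tested cilium gene, E2 minus PLB, in Arg260 (red, upper) and WT (blue, lower), with 95% intervals; filled points passed an adjusted p under 0.05. The points of both genotypes lie side by side for most genes, and Tekt4 and Dnaic2 lie to the right of 0 in both.

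Further genes of the same machinery were counted from wider lists. For each count, 30.7% of all genes tested were lower and 33.6% higher in Arg260, and 31.7% were lower and 31.9% higher in WT. Of 28 other intraflagellar transport genes tested, 18 were lower and 8 higher with E2 in Arg260, and 19 were lower and 6 higher in WT, with a median change of -0.57 in Arg260 and -0.54 in WT. Ttc30b and Ttc30a2, IFT-B subunits whose near-identical copies a probe may not tell apart, fell by 2.44 and 2.45 in Arg260 and by 2.27 and 2.25 in WT. Wdr60, a subunit of the dynein that returns the trains, fell by 1.42 in both. Traf3ip1, the IFT-B protein IFT54, rose by 1.61 in Arg260 and 1.64 in WT, followed in WT by Ttc21b, an IFT-A protein (0.53 in Arg260, 0.54 in WT), and Kif3b, the motor partner of Kif3a (0.34 in Arg260, 0.45 in WT).

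Of 43 other BBSome and transition zone genes, 27 were lower and 8 higher in Arg260, and 26 were lower and 7 higher in WT, with medians of -0.46 and -0.45. Cc2d2a, a transition zone protein, fell by 2.64 in Arg260 and 2.38 in WT. Bbs10, a chaperonin-like protein of BBSome assembly, fell by 1.75 in Arg260 and 1.96 in WT, and Cep164, a distal appendage protein that docks the basal body, by 1.96 in Arg260 and 1.79 in WT. Ahi1, a transition zone protein, rose by 0.69 in Arg260 and 0.85 in WT, Ofd1, a centriole protein, by 0.63 and 0.56, and Cep83, a distal appendage protein, by 0.47 and 0.48.

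Of 59 other axoneme and ciliated cell genes, 32 were lower and 9 higher in Arg260, and 36 were lower and 8 higher in WT, with medians of -0.73 and -0.78, but some of these passed the filter through PLB arrays alone. Of the 41 above background on all 16 arrays, 23 were lower and 7 higher in Arg260, and 26 were lower and 7 higher in WT, with medians of -0.67 and -0.52; of all genes equally bright, 31.6% were lower and 37.1% higher in Arg260 and 32.5% were lower and 35.3% higher in WT. Cfap52, a doublet microtubule protein, was above background on no E2 array, and its signal was at least 1.83-fold lower with E2 in Arg260 and at least 2.72-fold lower in WT. Cfap43, an axoneme protein, fell by 2.23 in Arg260 and by 3.06 in WT. The rises were led by Dnah17, the outer arm chain of sperm tails (4.24 in Arg260, 3.38 in WT), Ttll9, a tubulin glutamylase (3.59 in Arg260, 2.87 in WT), and Cfap100, an inner arm regulator (2.56 in Arg260, 2.42 in WT).

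A list of multiciliated cell regulators also held further RFX factors. Of its 15 genes tested, 4 were lower and 6 higher in Arg260, and 4 were lower and 3 higher in WT. Of the 12 above background on all 16 arrays, 2 were lower and 6 higher in Arg260, and 2 were lower and 3 higher in WT. Gmnc, which starts the multiciliated fate, was above background on all 8 PLB arrays and on no E2 array, and its signal was at least 2.77-fold lower with E2 in Arg260 and at least 3.76-fold lower in WT. Rfx5 and Rfx1, further RFX factors, fell by 0.48 and 0.59 in Arg260 and by 0.86 and 0.75 in WT. The 3 called higher in WT were E2f4 (1.29 in Arg260, 1.14 in WT) and E2f5 (0.52 in Arg260, 0.68 in WT), which act with multicilin, a relative of Gmnc, on centriole genes, and Trp73 (0.48 in Arg260, 0.34 in WT), a p53 relative upstream of Foxj1.

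**Figure D4:**
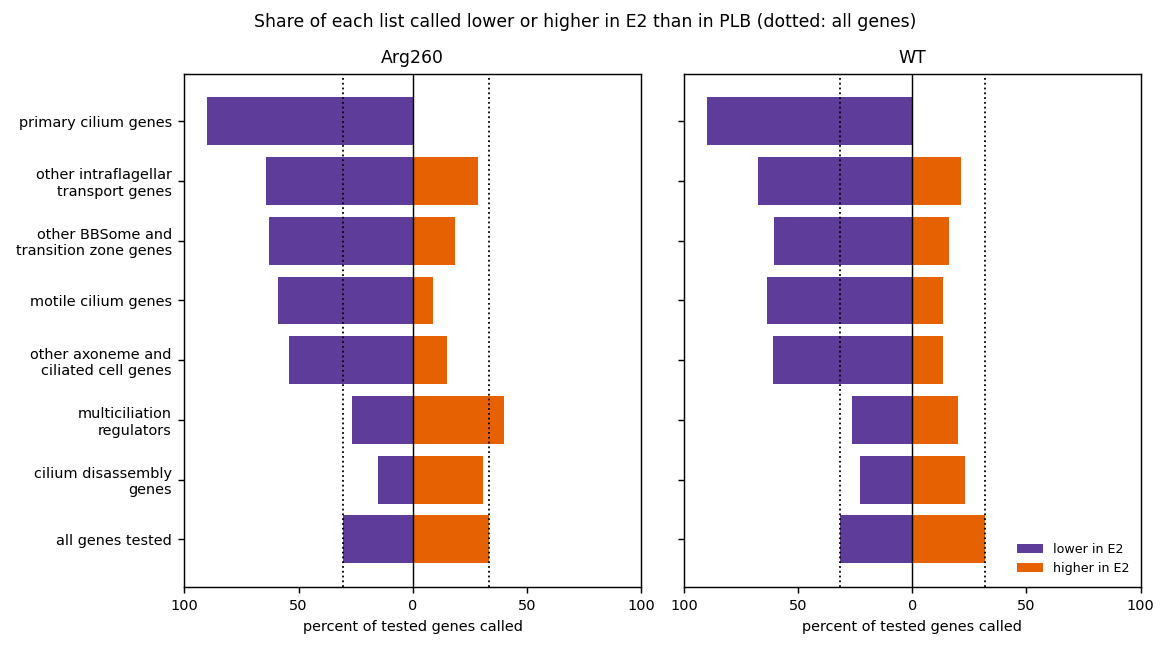
Percent of the tested genes of each list called lower (left of 0) or higher (right of 0) with E2 than with PLB, in Arg260 and WT; dotted lines mark the shares over all genes. Primary cilium genes have the longest bars to the left, 90% in both genotypes, and the regulators and disassembly genes have bars to the left shorter than those of all genes.

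Genes of cilium disassembly were called in both directions. Of 13 tested, 2 were lower and 4 higher in Arg260, and 3 were lower and 3 higher in WT, which is 46.2% called in each genotype, beside 64.3% of all genes in Arg260 and 63.6% in WT. Cep97 and Ccp110, which cap the mother centriole and hold cilia back, fell by 2.30 and 0.49 in Arg260 and by 2.01 and 0.57 in WT, and Hdac6, a tubulin deacetylase, by 0.20 in WT. Nedd9, an activator of the disassembly kinase Aurora A, rose by 0.64 in Arg260 and 1.07 in WT, Trip6, an adhesion adaptor, by 1.07 and 0.94, and Nde1, which limits cilium length, by 0.26 and 0.23.

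Of 9 genes of the hedgehog pathway, which signals through primary cilia, 4 were lower with E2 and 0 higher in each genotype. That is 44.4% called, beside 64.3% of all genes in Arg260 and 63.6% in WT, where 30.7% and 31.7% were lower. The receptor gene Ptch1 fell by 2.98 in Arg260 and 2.90 in WT, Nr2f2, which encodes a stromal transcription factor downstream of hedgehog in the uterus, by 0.85 and 1.09, and Gli2, a hedgehog effector, by 0.95 and 0.91.

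Markers of the cell types in the tissue were also counted. Beside these counts, 30.7% of all genes were lower and 33.6% higher in Arg260, and 31.7% were lower and 31.9% higher in WT. Of 7 stroma markers, 5 were lower with E2 in each genotype, and their mean level per array was 3.56 to 3.90 in Arg260 E2 uteri, against 4.26 to 4.80 in Arg260 PLB uteri, and 3.39 to 4.11 in WT E2 uteri, against 4.12 to 4.69 in WT PLB uteri. Of 8 epithelium markers, 4 were higher and 1 lower in Arg260 and 2 were higher and 1 lower in WT. Adipocyte markers were lower for 2 of 6 in Arg260 and 6 of 6 in WT, with mean levels of -3.28 to -0.50 in Arg260 E2, -1.12 to 0.53 in Arg260 PLB, -4.96 to -1.45 in WT E2 and -0.66 to 1.42 in WT PLB uteri; Lep was above background on no E2 array. The part of these cell types in the cilium results was not tested.

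Of 5 genes listed as oviduct secretory markers, 0 were lower in either genotype, and 2 were higher in Arg260 and 1 in WT. Of all genes, 33.6% were higher in Arg260 and 31.9% in WT. They were Ovgp1, Pax8, Sox17, Wnt7a and Msx2, and it was not tested whether their signal came from oviduct cells or from the uterus. All 5 were above background on all 16 arrays, and their mean level per array was 0.75 to 1.04 in Arg260 E2 uteri, against 0.70 to 0.79 in Arg260 PLB uteri, and 0.73 to 0.97 in WT E2 uteri, against 0.76 to 0.83 in WT PLB uteri. Ovgp1, the oviduct glycoprotein, changed by 0.00 in Arg260 and -0.24 in WT (adjusted p = 0.99 and 0.26). Of the 3 testis markers tested, 1, the spermatid gene Tnp1, was called, higher in both genotypes (1.08 in Arg260, 1.05 in WT), which is near the shares of all genes called higher.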

How the data were processed

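Uterine RNA of 16 samples was labelled with Cy3 and hybridised to 60-mer Agilent arrays of the mm9 design. Spot intensities in the deposited files are the authors', read with Agilent's Feature Extraction software (version 10.10.1.1); per the file headers it removed background and spatial trends, with no normalisation across arrays. A deposited table of log2 values, for which the submitters' processing notes name limma, served as an alternative only.

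Intensities were divided by the 75th percentile of each array's non-control spots and log2 transformed; outlier spots were left out. The brightest probe stood for a gene, among 38683 probes well above background on at least 4 of 16 arrays. Symbols were updated through RefSeq GRCm38.p6. The 4 groups were fitted in limma 3.58.1 (R 4.3.3; lmFit and eBayes), with two-sided tests of 5 comparisons adjusted by Benjamini-Hochberg over 25863 genes; the fit was tested on simulated data. Precision is limited by 4 arrays per group: 95% intervals of E2 effects reached a median of 0.296 log2 units to each side.

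Groups came from the sample labels. Arrays that share a scan date in the file headers were taken to lie on 1 slide. By that rule replicates 1 and 2 lay on slide 1 and replicates 3 and 4 on slide 2, 2 arrays of each group per slide. Members and gene lists were chosen with earlier results of these data known. All 35 members are named, and of other lists up to 3 genes called each way with the largest change in WT; 1 gene that this rule selects is not reported here. Alternatives were other normalisation, probe filters, priors, blocks, slides and each array left out. Probes' exon or UTR was not analysed here.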

Additional observations from a re-analysis of the deposited data

Results flagged for a closer look

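Of 128 groups of 4 arrays (32 genes in 4 groups), 5 held 1 array far from the other 3 by Dixon's criterion, and chance flags about 1 in 20 groups. All 5 were low values in Arg260. Hydin read -5.47 in E2 replicate 4, where the other 3 read -4.65 to -4.62. Ift88 read 1.13 in E2 replicate 1, where the others read 1.41 to 1.44. With PLB, Tekt4 read -2.72 in replicate 3 (others -2.40 to -2.36), Ttc8 read 1.49 in replicate 3 (others 1.74 to 1.77), and Bbs4 read 1.62 in replicate 4 (others 1.72 to 1.73).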

How the results depend on the processing

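Across 29 alternatives, 32 of the 50 calls of single cilium genes for E2 against PLB passed under every one, 18 were lost under at least 1, and 0 reversed. The largest drop in motile genes called was on slide 2 alone, with 10 in WT, against 17 on both slides. Slide 1 alone gave 12. Calls over all 25863 genes in WT fell too, to 11391 on slide 2 alone and 13895 on slide 1 alone, against 16439 on both. Within slides, with 2 arrays per group, Arg260 gave 13 motile genes on slide 1 and 10 on slide 2, against 15. Of all genes, 14487 and 11235 were called there, against 16631. The drops were thus not particular to motile genes. With 1 array left out, 13 to 16 motile genes were called in Arg260 and 14 to 18 in WT, and 9 to 10 primary genes in each. Replicate numbers did not pair the samples (correlations of same-numbered deviations of -0.11 to 0.26), and the fit with the replicate block called 16 motile genes in each genotype; under it Spef2 passed in Arg260 (adjusted p = 0.0092) and Spag16 did not in WT (0.559, adjusted p = 0.0501). Leaving out both arrays that stood apart gave 16 motile genes in Arg260 and 15 in WT, and all 10 primary genes in both.

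The median change of motile genes shrank under normexp background with quantile normalisation (-0.25 in Arg260, -0.27 in WT) and in the series table (-0.36 in Arg260, -0.40 in WT). The normexp setting added an offset of 50 before the log. It was -0.63 in WT under quantile normalisation, -0.58 in WT on slide 1, and -0.75 in Arg260 as the mean of all probes. With 1 array left out it was -0.70 to -0.61 in Arg260 and -0.82 to -0.56 in WT. The primary median was -1.19 in Arg260 and -1.21 in WT under quantile normalisation, -1.19 in WT under normexp, -1.18 in WT in the series table, and -1.24 in Arg260 on slide 1. The median genotype difference of the E2 response was, for motile genes, -0.12 on slide 1, 0.16 on slide 2, -0.10 without the arrays that stood apart, and -0.10 to 0.0499 with 1 array left out; for primary genes it was -0.17 on slide 1 and 0.11 on slide 2. The motile median of Arg260 against WT was -0.00139 with PLB in the series table and -0.19 with E2 on slide 1, where the primary median was -0.13. No genotype comparison called a cilium gene under any of the 29 alternatives. The causes of these shifts were not tested. Signals near background limit Foxj1, Dnahc1, Dnahc5, Dnahc11 and Dnali1, and for each of them the PLB arrays alone met the filter.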
